A study of Mus musculus with 4 samples.

Results

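The tetraspanin genes of mouse tail tip fibroblasts (TTFs) were described with and without an autosomal *Xist* transgene. The members were chosen by symbol alone, as every *Tspan* gene with a number plus *Cd9*, *Cd37*, *Cd53*, *Cd63*, *Cd81*, *Cd82* and *Cd151*, which gave 27 of the 23924 genes of the expression matrix. No measured value entered that rule, but the family was put forward with results of the same comparison known, among them that of *Tspan7*. The fold changes below therefore describe each gene and give no independent support for a change of the family.

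The TG cells came from male Tg2087/+ mice of the C57BL/6J-TgBAC8-2087 line, which are hemizygous for an autosomal insertion of a piece of the X-inactivation center (*Xic*) from which *Xist* is transcribed by its own promoter. The WT cells came from male +/+ littermates, the age of the mice is not given in the sources used here, and no other treatment was applied. Both genotypes were immortalized with SV40 large T, after which the study describes the cells as tetraploid, so that neither genotype represents primary fibroblasts. RNA-seq of polyadenylated RNA gave 2 WT and 2 TG libraries, and nothing in the sources used here tells whether duplicate libraries represent separate mice or cultures, so the errors below may in part be technical.

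Tetraspanins are small membrane proteins with several membrane-spanning segments and a large extracellular loop that binds partner proteins. They gather with each other, with integrins, with immunoglobulin-domain proteins and with proteases into tetraspanin-enriched patches of membrane, and several of them are abundant on exosomes. In fibroblasts they are known for their part in adhesion, migration, vesicle release and the handling of membrane proteases.

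The members lay on 12 chromosomes, with 2 of them, *Tspan6* and *Tspan7*, on Chr X. Chr 1, to which the study linked the transgene by FISH and chromosome painting, carried 0 members. A promoter sequence was matched for 26 of the 27 members in RefSeq (GRCm38.p6), and *Tspan18* had none. The 250 bases before the start, taken at the most upstream start of a gene with several, were compared by their CpG dinucleotides, since promoters rich in CpG are typical of widely expressed genes. Some windows lay inside a longer annotated span of the gene, as for *Cd63*, *Tspan12* and *Tspan31*. For *Cd9* and *Cd151* all 250 bases lay in annotated exons. The counts therefore describe these windows, which need not be promoters in every case. The 16 members with a mean of at least 1 FPKM (a level per length, counted as fragments per kilobase and adjusted for library size) had a median of 16 CpG, between 5 and 33. The 10 members below 1 FPKM had a median of 4, between 1 and 21, and the median over the 27025 genes of the promoter table was 6.

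The upstream windows are shown for 3 of the 4 members with an adjusted p under 0.05 between the genotypes, since the *Tspan6* sequence differs in base composition from the other two. Capitals mark a GC box (GGGCGG, read as CCGCCC on the other strand), which 32.7% of all 32851 windows held. TATAAA and CCAAT were searched on both strands as well, and 12.4% and 33.8% of all windows held them. No motif overlapped another in the windows shown, each sequence reads 5′ to 3′ on the strand of the gene, and each ends at the base before the transcript start.
*Tspan7*, chrX:10484866-10485115, strand +: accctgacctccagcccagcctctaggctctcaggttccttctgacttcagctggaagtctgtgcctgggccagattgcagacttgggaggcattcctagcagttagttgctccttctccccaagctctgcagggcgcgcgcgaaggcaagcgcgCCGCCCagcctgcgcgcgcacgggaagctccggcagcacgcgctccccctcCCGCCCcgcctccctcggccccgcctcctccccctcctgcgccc
*Tspan6*, chrX:133898430-133898679, strand -: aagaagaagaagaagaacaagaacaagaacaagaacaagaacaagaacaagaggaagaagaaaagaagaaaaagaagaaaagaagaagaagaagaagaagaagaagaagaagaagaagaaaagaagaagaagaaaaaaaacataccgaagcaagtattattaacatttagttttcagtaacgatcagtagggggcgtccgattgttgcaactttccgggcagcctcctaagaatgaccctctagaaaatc
*Tspan4*, chr7:141475154-141475235, strand +: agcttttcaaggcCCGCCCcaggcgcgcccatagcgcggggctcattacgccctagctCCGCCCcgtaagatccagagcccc

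The *Tspan7* window was 69.2% G and C with 19 CpG and held 2 GC boxes. The *Tspan6* window was 36.0% G and C with 5 CpG and held none of the 3 motifs. It precedes the one *Tspan6* transcript start of the promoter table and lies inside the longer annotated span of the gene. The *Tspan4* stretch was limited to the 82 bases between its start and the nearest RefSeq coordinate of the neighbouring gene *Polr2l*. It was 68.3% G and C with 2 GC boxes. *Tspan2* has 2 windows, with 241 and 101 of their 250 bases in annotated exons, and neither is shown. A match is a match of letters only.

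Library totals, worked out from the FPKM values, were 9465712 (WT 1), 14639946 (WT 2), 11923758 (TG 1) and 11063020 (TG 2) reads. *Xist* itself stood at 0 and 0.108 FPKM in WT and at 2.31 and 2.28 in TG. Of 10 fibroblast markers 6 were above 1 FPKM in every library, *Vim* between 2147 and 2547, while *Lum* was at 0 and *Fap* at or near 0. *Dcn* stood at 0 in both WT libraries and at 0.0429 and 0.878 FPKM in TG, and *Pdgfra* at 0.0999 and 0.307 in WT and 0.823 and 1.13 in TG. The fibroblast markers summed to 4342 and 3920.5 FPKM in WT and to 3677 and 3777 in TG. *Col1a1* and *Pdgfrb* were lower in both TG libraries, at an adjusted p of 0.0491 and 0.0165 (limma). So were *Col1a2*, *Col3a1* and *Thy1*, at an adjusted p of 0.143, 0.313 and 0.402 (limma). By voom the adjusted p was 0.000201 for *Col1a1*, 0.000131 for *Pdgfrb*, 0.00752 for *Col1a2*, and 0.159 for both *Col3a1* and *Thy1*. *Vim* and *Pdgfra* were higher in both TG libraries, at an adjusted p of 0.737 and 0.218 (limma; 0.0308 for *Pdgfra* by voom). The 6 epithelial markers summed to 1.80 and 2.24 FPKM in WT and to 11.8 and 12.7 in TG, with *Krt5*, *Krt8* and *Krt14* at 0. Most of it was *Krt18*, at 1.10 and 2.24 in WT and 11.5 and 12.2 in TG (adjusted p = 0.00123, limma). *Epcam* stood at 0.553 and 0 in WT and at 0.307 and 0.52 in TG. *Cdh1* stood at 0.148 in WT 1 and at 0 in the other libraries. The Schwann and neural list summed to between 26.1 and 38.0, with *Sox10* at 0 in every library, and the endothelial, melanocyte and skeletal muscle lists stayed between 0 and 2.68. The part of these marker differences in the results below was not tested, and in such bulk RNA fewer cells of a type and less RNA per cell cannot be told apart.

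The summed level of the family was 1371 and 1228 FPKM in WT and 1176 and 1287 in TG, which was between 0.232% and 0.278% of the summed FPKM of all genes. The ranges of the genotypes overlapped. By mean FPKM, 4 members were over 100, 12 were over 10, 4 more lay between 1 and 10, and 11 lay below the minimum mean of 0.5 FPKM that was set for testing. Those 11 comprised 8 with some reads and 3, *Tspan8*, *Tspan10* and *Tspan32*, that were listed at 0 in every library. The 4 most abundant members, *Cd63*, *Cd9*, *Cd81* and *Tspan31*, made up between 73.0% and 77.1% of the family's FPKM.

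**Figure D1:**
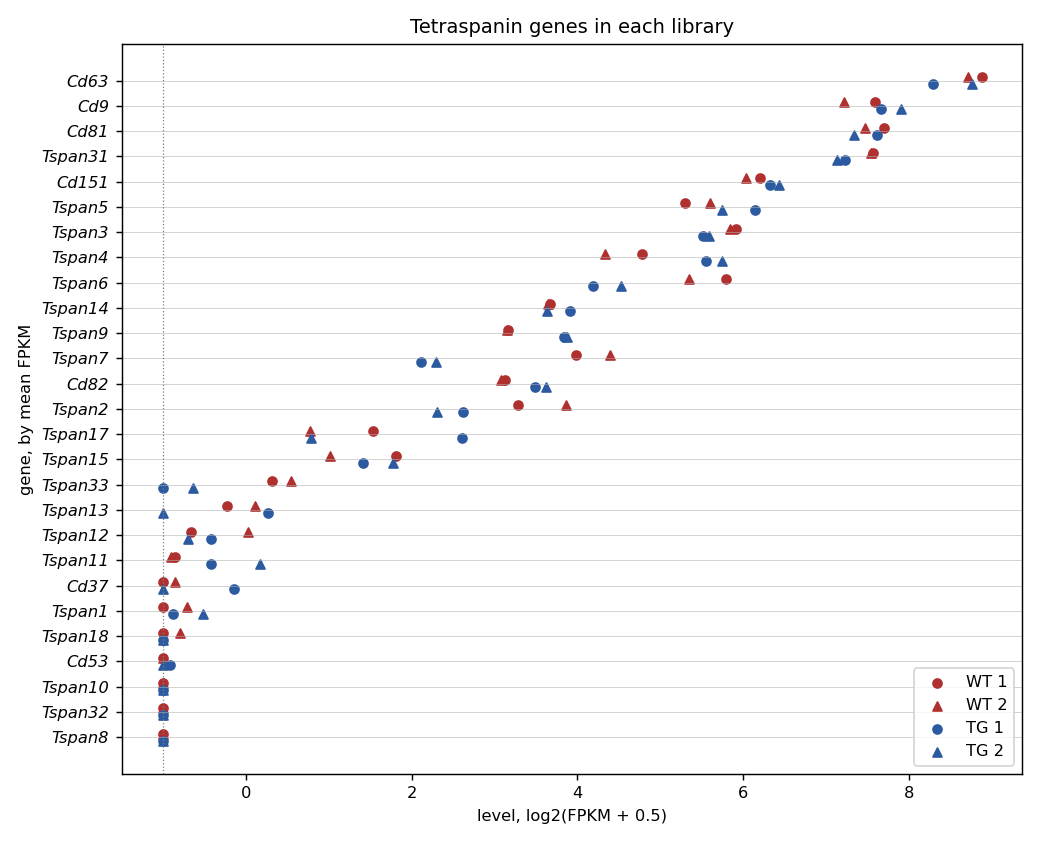
Levels of the 27 tetraspanin genes in each library, as log2(FPKM + 0.5) on the horizontal axis, with genes ordered by mean FPKM (WT red, TG blue, circles for library 1 and triangles for library 2). The dotted line marks a value of 0 FPKM, and *Tspan7*, *Tspan6* and *Tspan2* have both TG points to the left of both WT points.

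TG was compared with WT by limma on log2(FPKM + 0.5) over the 11524 genes with a mean of at least 0.5 FPKM, with Benjamini-Hochberg adjustment over all of them. Fold changes are log2 values on that scale and are TG minus WT. A gene was called where its adjusted p was under 0.01 and its fold change reached 1 in either direction, which are the study's thresholds, and 1.08% of all tested genes were called (0.469% lower and 0.607% higher in TG). Of the 16 tested tetraspanins 1 was called, *Tspan7*, which was lower in TG. At an adjusted p under 0.05, which 4.13% of all tested genes passed (1.54% lower and 2.59% higher), 4 members passed: *Tspan7*, *Tspan6* and *Tspan2* were lower and *Tspan4* was higher. No share of the members is read against those backgrounds, since the choice of the family drew on this comparison.

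Over the 16 tested members 7 fold changes were below 0 and 9 above, with a median of 0.151, beside 0.071 over all tested genes. Both TG libraries lay below both WT libraries for *Tspan2*, *Tspan3*, *Tspan6*, *Tspan7* and *Tspan31*, 5 members, against a background of 20.3% of tested genes. Both lay above for *Cd9*, *Cd82*, *Cd151*, *Tspan4*, *Tspan5* and *Tspan9*, 6 members, against a background of 30.2%. For the remaining 5 the groups overlapped. The median absolute log2 difference of the 16 members was 0.26 between the WT libraries and 0.26 between the TG libraries, and between 0.43 and 0.49 for a TG against a WT library. Over all tested genes the same medians were 0.24, 0.23 and between 0.27 and 0.34.

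With 2 libraries per genotype the smallest p of an exact permutation test is 0.333, so the adjusted p-values rest on the variance that limma shares across genes. The 4 passing members moved across the threshold with the settings of the fit. Without a variance trend *Tspan7* alone stayed under 0.05 (adjusted p = 0.0185), and with all 15530 genes above 0 in the fit none of the 4 did (*Tspan7*, adjusted p = 0.0523). When voom, the limma method for counts, was applied to whole reads worked out from the FPKM values, *Tspan2*, *Tspan4*, *Tspan6* and *Tspan7* were all called at the study's thresholds, where 2.37% of tested genes were called.

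**Figure D2:**
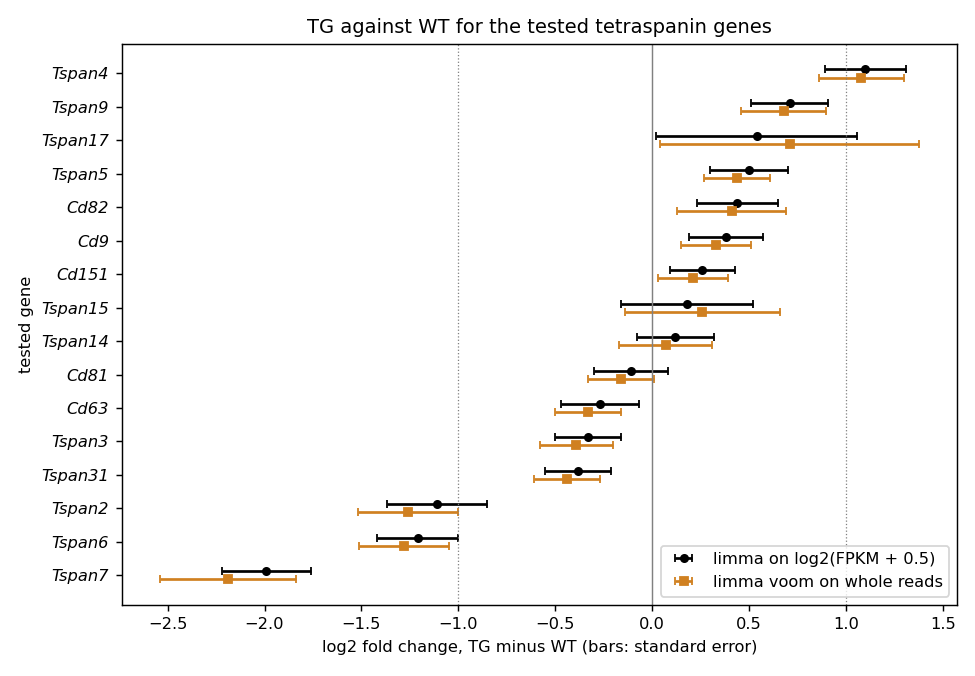
Log2 fold change, TG minus WT, of the 16 tested tetraspanin genes (horizontal axis), with bars for the standard error, from limma on log2(FPKM + 0.5) in black and from voom on whole reads in orange. Dotted lines mark log2 fold changes of 1 in size, past which lie *Tspan4* on the right and *Tspan2*, *Tspan6* and *Tspan7* on the left.

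*Tspan7* (Chr X, 10485116 to 10596604 in GRCm38) encodes a tetraspanin best known from neurons, where it takes part in receptor trafficking at synapses and where mutations of the human gene cause X-linked intellectual disability. It stood at 15.3 and 20.5 FPKM in WT 1 and WT 2 and at 3.82 and 4.39 in TG 1 and TG 2. Both TG libraries were far below both WT libraries, and the gap between genotypes exceeded the gap within either. The means were 17.9 ± 3.70 FPKM in WT and 4.11 ± 0.407 in TG (SD, n = 2 each), a reduction of 77.1%. The underlying reads were 235 and 488 in WT and 74 and 79 in TG. The log2 fold change was -1.99 (SE 0.23, adjusted p = 0.0013, limma), and voom on reads gave -2.19 (adjusted p = 5.45e-05). Leaving out WT 1 moved the adjusted p to 0.0359 and leaving out WT 2 moved it to 0.0655, with fold changes of -2.19 and -1.78, so the call at the study's thresholds needs both WT libraries.

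*Tspan6* (Chr X, 133891068 to 133901208) encodes a tetraspanin of endosomes that is known to influence exosome release and antiviral signaling. It stood at 54.8 and 40.2 FPKM in WT and at 17.7 and 22.6 in TG, and again both TG libraries lay below both WT libraries. The means were 47.5 ± 10.3 FPKM in WT and 20.1 ± 3.47 in TG (SD, n = 2), a reduction of 57.6% on 837 and 950 reads in WT and 340 and 403 in TG. The log2 fold change was -1.21 (SE 0.21, adjusted p = 0.013, limma), past 0.05 but short of the study's threshold of 0.01. It passed 0.05 without TG 2 (adjusted p = 0.0134) but not without WT 1 (0.0962), WT 2 (0.074) or TG 1 (0.0568).

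Both X-linked members were lower in TG, while Chr X as a whole was not shifted downward. Over its 367 tested genes the median log2 fold change was 0.135, with 5 genes lower and 4 higher at an adjusted p under 0.05. Genes next to *Tspan7*, *Tspan6* and *Tspan4* were then listed by position within 300 kb, a step added after the members' values were known. Next to *Tspan6*, at a gap of 7207 bases, lay *Srpx2*, which encodes a secreted sushi-repeat protein and stood at 20.1 and 22.2 FPKM in WT and at 1.63 and 0.326 in TG. Its log2 fold change was -4.03 (adjusted p = 0.000459, limma), a larger fall than that of *Tspan6*. The other tested neighbours of *Tspan6* gave fold changes of 0.05 (*Pcdh19*) and 0.32 (*Cstf2*), neither past 0.05. *Tspan7* had a single tested neighbour, *Mid1ip1*, with a fold change of -0.07 (adjusted p = 0.883).

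*Tspan2* (Chr 3, 102734770 to 102772310) encodes a tetraspanin known from oligodendrocytes and myelin. It stood at 9.25 and 14.0 FPKM in WT and at 5.65 and 4.44 in TG, without overlap, although the WT libraries differed from each other more than the TG libraries did. The means were 11.6 ± 3.39 and 5.05 ± 0.857 FPKM (SD, n = 2), a reduction of 56.7%. The log2 fold change was -1.11 (SE 0.26, adjusted p = 0.038, limma). The adjusted p did not stay under 0.05 with any single library left out. The log2 fold change was then -1.40 without WT 1, -0.82 without WT 2, -1.27 without TG 1 and -0.95 without TG 2.

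*Tspan4* (Chr 7, 141475236 to 141493427) encodes a tetraspanin that concentrates in migrasomes, the vesicles left behind on the retraction fibers of migrating cells. It stood at 27.0 and 19.6 FPKM in WT and at 46.5 and 53.2 in TG, so both TG libraries were above both WT libraries. The means were 23.3 ± 5.25 and 49.8 ± 4.72 FPKM (SD, n = 2), 2.14 times as much in TG, on 363 and 407 reads in WT and 787 and 835 in TG. The log2 fold change was 1.10 (SE 0.21, adjusted p = 0.0162, limma). It passed 0.05 without WT 1 (0.0464) and without TG 1 (0.0339) but not without WT 2 (0.164) or TG 2 (0.0668). *Tspan4* shares 292 of its 2178 exonic bases with *Chid1* on the opposite strand, and the strand setting of the counting is not given in the sources used here. *Chid1* stood at 8.59, 5.91, 11.1 and 10.9 FPKM in WT 1, WT 2, TG 1 and TG 2, below *Tspan4* in each library.

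*Tspan4* is also the near neighbour of another member, *Cd151*, at a gap of 3754 bases on Chr 7. *Cd151* encodes the partner of the laminin-binding integrins and stood at 73.3 and 65.0 FPKM in WT and at 79.9 and 86.0 in TG. Its groups did not overlap, but the log2 fold change was only 0.26 (SE 0.17, adjusted p = 0.455, limma). Of the 19 tested genes within 300 kb of *Tspan4*, 2 passed 0.05 as well, beside 4.13% of all tested genes, and the median was 0.24. Both were higher in TG, *Eps8l2* (log2 fold change 1.95, adjusted p = 0.0286, limma) and *Rplp2* (1.39, adjusted p = 0.0315). *Eps8l2* was near the floor in WT, at 0.0362 and 0.398 FPKM against 2.36 and 2.01 in TG. *Rplp2* differed between the WT libraries, at 236 and 117 FPKM against 534 and 357 in TG. The difference between the neighbouring pair *Cd151* and *Tspan4* was not tested.

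**Figure D3:**
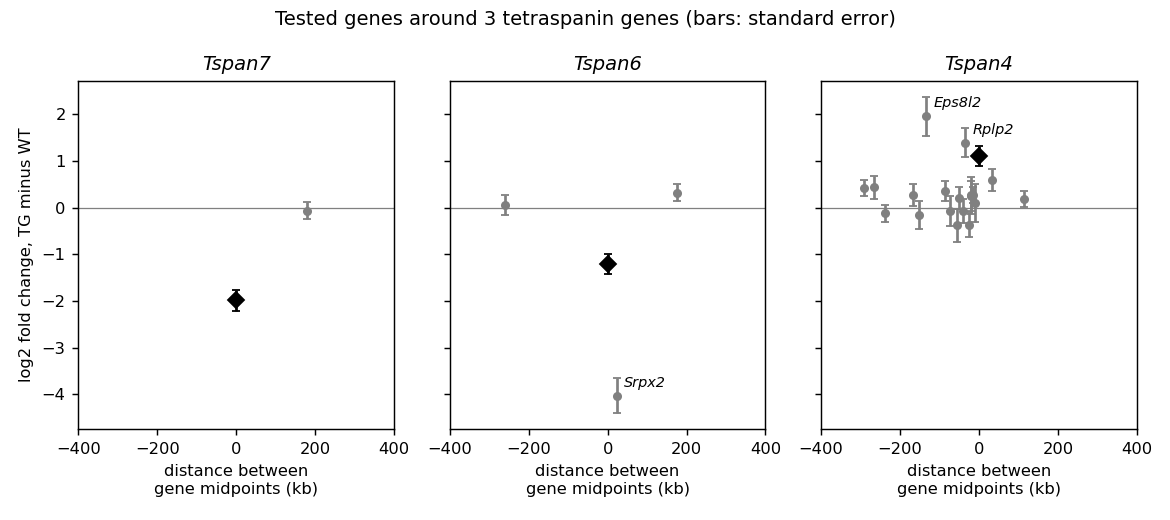
Log2 fold change, TG minus WT, with standard errors, of the tested genes within 300 kb of *Tspan7*, *Tspan6* and *Tspan4* (black diamonds), against the distance between gene midpoints in kb. Named grey points have an adjusted p under 0.05, and *Srpx2* at -4.03 lies below *Tspan6* at -1.21.

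*Tspan9* (Chr 6, 127961396 to 128143578), known from platelet membranes, did not pass the looser threshold. It stood at 8.43 and 8.37 FPKM in WT and at 13.8 and 14.2 in TG. The libraries of each genotype were almost equal, with means of 8.40 ± 0.0393 and 14.0 ± 0.303 FPKM (SD, n = 2), and the groups were well apart. The log2 fold change was 0.71 (SE 0.20, adjusted p = 0.0799, limma), and it lay between 0.64 and 0.73 under all 13 alternatives. The adjusted p was 0.0518 by voom, 0.137 by limma without a variance trend and 0.173 by limma with all genes above 0. Its neighbour at 8.36 kb, *Tspan11*, was read only 2 times in each WT library and 12 and 28 times in TG 1 and TG 2 and was not tested. The depth-scaled ratio of WT to TG reads of *Tspan11* was 0.0954, with an exact 95% interval from 0.0248 to 0.264. That interval covers counting error only, and these reads are known only up to a common factor.

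*Cd63*, *Cd9* and *Cd81* are the tetraspanins most used as markers of exosomes, and they were the 3 most abundant members. *Cd63*, which cycles between the cell surface, late endosomes and lysosomes and is also a surface receptor for TIMP1, ranked 151st of all genes by mean FPKM. It stood at 469 and 419 FPKM in WT and at 313 and 432 in TG, so that the low TG 1 value set the lower TG mean of 373 ± 84.6 against 444 ± 35.0 (SD, n = 2). Its log2 fold change was -0.27 (SE 0.20, adjusted p = 0.525, limma). In every library *Cd63* was above every other member.

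*Cd9*, which takes part in membrane fusion and is needed on the egg for fertilization, stood at 192 and 148 FPKM in WT and at 202 and 239 in TG. The groups did not overlap, but the gap between 192 and 202 was smaller than the gap within WT, and the log2 fold change was 0.38 (SE 0.19, adjusted p = 0.314, limma). *Cd81*, a receptor for hepatitis C virus in man, stood at 207 and 177 FPKM in WT and at 196 and 161 in TG. Its groups overlapped, the log2 fold change was -0.11 (SE 0.19, adjusted p = 0.807, limma), and its sign changed when WT 1 or TG 2 was left out. *Cd9* and *Cd81* ranked next to each other, and their ranges over the libraries overlapped.

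*Tspan31*, the fourth most abundant member, stood at 189 and 186 FPKM in WT and at 149 and 139.7 in TG. Both TG libraries were lower and the libraries of each genotype were close, with means of 188 ± 2.06 and 144 ± 6.40 FPKM (SD, n = 2), but the log2 fold change of -0.38 (SE 0.17) had an adjusted p of 0.247 (limma). *Tspan31* is known for its co-amplification with *CDK4* in human sarcomas, and in the mouse 641 of its 2193 exonic bases overlap *Cdk4* on the opposite strand. *Cdk4* stood at 540.4, 471, 585 and 608 FPKM in WT 1, WT 2, TG 1 and TG 2, above *Tspan31* in each library, so that without the strand setting its reads cannot be told apart from those of *Tspan31* over the shared bases. Its log2 fold change of 0.24 (adjusted p = 0.523, limma) had the opposite sign.

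*Tspan3* and *Cd82* gave small fold changes of opposite sign. *Tspan3* stood at 59.8 and 56.9 FPKM in WT and at 45.1 and 47.4 in TG, which gave a fold change of -0.33 (SE 0.17, adjusted p = 0.322, limma). *Cd82*, a suppressor of metastasis in several tumors, stood at 8.27 and 7.97 FPKM in WT and at 10.7 and 11.8 in TG, which gave one of 0.44 (SE 0.21, adjusted p = 0.268, limma). Neither gene's groups overlapped and neither passed the test.

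The TspanC8 group is named for the cysteines of its large loop, and its 6 members bind the membrane protease ADAM10, bring it out of the endoplasmic reticulum and steer it toward different substrates. Of the 6, 4 were tested, 0 passed an adjusted p of 0.05, and all 4 fold changes were above 0 with a median of 0.34. *Tspan5*, which favors Notch cleavage, was by far the main member. It stood at 38.8 and 47.9 FPKM in WT and at 70.0 and 53.2 in TG and made up between 67.9% and 76.7% of the group's FPKM. Its groups did not overlap, but TG 1 and TG 2 lay far apart, and the log2 fold change was 0.50 (SE 0.20, adjusted p = 0.205, limma).

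*Tspan14*, which also promotes Notch signaling, stood at 12.2 and 12 FPKM in WT and at 14.6 and 11.9 in TG (log2 fold change 0.12, SE 0.20, adjusted p = 0.804, limma). *Tspan15*, which directs ADAM10 to N-cadherin, stood at 3.0 and 1.52 FPKM in WT and at 2.16 and 2.93 in TG (0.18, SE 0.34, adjusted p = 0.824). *Tspan17* stood at 2.40 and 1.21 FPKM in WT and at 5.60 and 1.22 in TG, so that the single library TG 1, with 94 reads against 19 in TG 2, set its fold change of 0.54 (SE 0.52, adjusted p = 0.626). The groups overlapped for all 3 genes, and the sign of each changed when 1 library was left out, TG 1 for *Tspan14* and *Tspan17* and WT 2 for *Tspan15*.

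*Tspan33*, known from B cells and erythroid precursors, fell under the filter with a mean of 0.462 FPKM and was not tested. It stood at 0.742 and 0.959 FPKM in WT and at 0 and 0.146 in TG, on 13 and 26 reads in WT and 0 and 3 in TG. Both TG libraries were below both WT libraries. The depth-scaled ratio of WT to TG reads was 12.4 with an exact 95% interval from 3.94 to 62.7, which covers counting error only, and the 0 in TG 1 allows a level of up to 0.136 FPKM. *Tspan10*, known from pigmented cells, was listed at 0 throughout. Of the 4 melanocyte markers *Tyr* and *Mlana* were at 0 as well. The others were near 0, *Dct* with 1 read in WT 2 and *Pmel* with 6 reads in WT 2 and 4 in TG 1.

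*Adam10* itself stood at 25.1 and 26.6 FPKM in WT and at 21.9 and 18.9 in TG (log2 fold change -0.34, SE 0.19, adjusted p = 0.362, limma). It was lower in both TG libraries, as was the untested *Tspan33*, and did not pass the test. Its sign was opposite to that of the 4 tested TspanC8 genes. Of these, *Tspan14*, *Tspan15* and *Tspan17* changed sign when a single library was left out. Per length, *Tspan5* was above *Adam10* in every library. The summed level of the 6 TspanC8 genes was 57.2 and 63.6 FPKM in WT and 92.3 and 69.4 in TG, without overlap. *Tspan5* made up most of that sum in every library. Among all tested genes 30.2% had both TG libraries above both WT libraries.

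**Figure D4:**
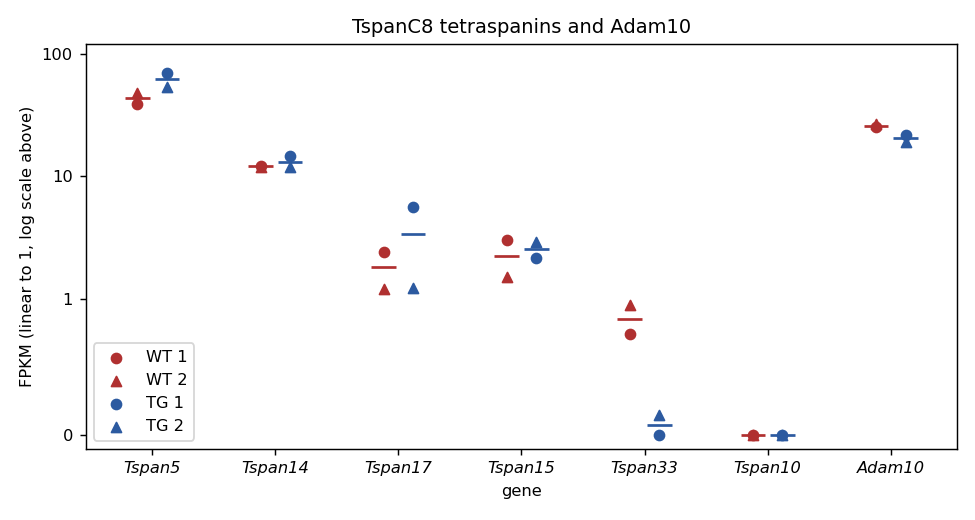
FPKM of the 6 TspanC8 tetraspanin genes and of *Adam10* in each library (WT red, TG blue), on an axis that is linear up to 1 and logarithmic above, with a line at the mean of each genotype. *Tspan5* lies between 38.8 and 70.0 FPKM, *Adam10* between 18.9 and 26.6, and *Tspan33* at 0.742 and 0.959 in WT and at 0 and 0.146 in TG.

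The leukocyte tetraspanins were at or near 0. *Cd53*, a pan-leukocyte surface protein, was read 1 time in TG 1 and 0 times in the other libraries. *Cd37*, a B cell tetraspanin, was read 0 and 1 times in WT and 6 and 0 times in TG, and *Tspan32*, known from blood cells, was at 0. Of the 8 leukocyte markers 5 were at 0 in every library, among them *Ptprc*, *Cd3e*, *Adgre1* and *Itgam*, and only *Cd68*, between 5.12 and 12.1 FPKM, was above 1 in all libraries. A count of 0 in the shallowest library allows up to 0.12 FPKM for *Cd53* and 0.257 for *Cd37*.

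The remaining low members were not tested either. *Tspan12*, a coreceptor of Norrin and FZD4 in retinal vessels, ranged from 0.115 to 0.520 FPKM over the libraries, and *Tspan13* ranged from 0 to 0.709. *Tspan1*, known from epithelia, was read between 0 and 4 times, and *Tspan18*, known from endothelium, 4 times in WT 2 alone. For these 4 genes the groups overlapped. *Tspan8*, another tetraspanin of epithelia, was listed at 0 in every library.

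Among themselves the members formed 4 close pairs on the genome, with gaps under 200 kb. Besides *Cd151* with *Tspan4* and *Tspan11* with *Tspan9*, these were *Tspan18* with *Cd82* on Chr 2 at 84.5 kb and *Tspan32* with *Cd81* on Chr 7 at 33.3 kb. In the latter pairs a gene listed at or near 0 lay beside an expressed one, with *Cd82* between 7.97 and 11.8 FPKM and *Cd81* between 161 and 207.

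The partner genes were a list of 24 known binding partners, regulators and vesicle genes, of which 23 were tested, all but *Itgb4*. Of the 23, 0 were called and 1 passed an adjusted p of 0.05, higher in TG, which is 4.35% beside 4.13% of all tested genes. Fold changes were below 0 for 11 and above 0 for 12, with a median of 0.022. The one that passed was *Timp1* (Chr X, 20870166 to 20874737), the metalloprotease inhibitor that binds CD63. It stood at 201 and 231 FPKM in WT and at 574 and 379 in TG, with both TG libraries higher (log2 fold change 1.11, SE 0.22, adjusted p = 0.0202, limma). It passed 0.05 without TG 2 (0.00795) but not without WT 1 (0.13), WT 2 (0.16) or TG 1 (0.113), nor without a variance trend (0.10) or with all genes above 0 (0.129).

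*Ptgfrn* and *Igsf8* encode the immunoglobulin-domain partners of CD9 and CD81. *Ptgfrn* stood at 33.2 and 46.0 FPKM in WT and at 30.6 and 34.7 in TG (log2 fold change -0.26, adjusted p = 0.551, limma), with overlapping groups. *Igsf8* stood at 17.1 in both WT libraries and at 24.3 and 20.9 in TG (0.39, adjusted p = 0.285). *Itgb1*, the integrin beta 1 chain found in complexes with CD9, CD63, CD81 and CD151, stood at 414 and 374 FPKM in WT and at 331 and 326 in TG (-0.26, adjusted p = 0.464). None of these 3 passed the test. By voom on reads 3 partner genes passed an adjusted p of 0.05, *Timp1*, *Itga3* and *Mmp14*, where 8.04% of all tested genes passed.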

How the data were processed

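The data are RNA-seq of 2 WT and 2 TG libraries. The authors used Rsubread for alignment to mm10 and for counts per gene, which they converted to FPKM, and DESeq for tests on the counts. The deposited FPKM values are on a linear scale, one column per library, so the count test was not repeated here. The test was limma 3.58.1 in R 4.3.3 (lmFit, then eBayes, variance trend included) on log2(FPKM + 0.5), over genes with a mean of at least 0.5 FPKM, with all 4 libraries and no covariate. It was tested on simulated data.

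Whole reads were worked out from ratios of FPKM values between libraries (tolerance 0.001 reads), with a common factor set from exonic length for 1847 genes and no solution for 2. The recovered reads of the libraries summed to between 100.3% and 100.53% of the totals, so the factor may be too high for some genes. They were used for voom with TMM scaling and for intervals (exact, scipy 1.17.1).

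Every member is named. Values per library are given for members past an adjusted p of 0.05, the 6 most abundant, those on Chr X and the TspanC8 group, and of the partner genes for those past 0.05 and *Adam10*, *Ptgfrn*, *Igsf8* and *Itgb1*. Per-library values of *Tspan3*, *Tspan9*, *Cd82* and the neighbours were added after their values were seen. The members, gene lists and markers were chosen with earlier results of these data known. The neighbours of *Tspan2* are not reported here. Coordinates, overlaps and promoters are from RefSeq and GENCODE annotation of GRCm38. Alternatives were other pseudocounts, filters and scalings, no variance trend, a block, voom and each library left out.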

Additional observations from a re-analysis of the deposited data

How the results depend on the processing

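*Tspan7*, *Tspan6*, *Tspan2* and *Tspan4* kept their direction under all 13 alternatives, with log2 fold changes from -2.19 to -1.78, -1.43 to -0.99, -1.40 to -0.82 and 0.87 to 1.32, and adjusted p-values under 0.05 in 11, 7, 6 and 8 of them. The count of called tetraspanins, 1 as reported, was 0 with all genes above 0, 0 without a variance trend and 4 by voom. The count at an adjusted p under 0.05, 4 as reported, was 0, 1 and 4 in that order, and that of the partner genes, 1 as reported, was 0, 0 and 3. With 1 library left out the counts ranged from 0 to 1, from 0 to 2 and from 0 to 1, where the lone library of an arm is assumed to vary like the others. With all genes above 0 in the fit 44 of 15530 genes passed 0.05, against 476 of 11524 as reported. The cause was not tested.

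Log2 fold changes that turned were those of *Cd81*, to 0.01 without WT 1 and 0.03 without TG 2 (range over the libraries left out -0.25 to 0.03), *Tspan14*, to -0.02 without TG 1 (-0.02 to 0.26), *Tspan15*, to -0.21 without WT 2 (-0.21 to 0.58), and *Tspan17*, to -0.37 without TG 1 (-0.37 to 1.45). With the replicate number as a replicate block 0 tetraspanins were called, 1 passed 0.05 (*Tspan7*, adjusted p = 0.0141) and 0 partner genes passed. The numbers were not found to pair the libraries: the difference between the WT libraries and that between the TG libraries correlated at -0.0276 over 11524 genes. The 11 low members, at under 30 reads per library, had no test in the main fit because their mean lay below 0.5 FPKM.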

Other observations

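Tetraspanin genes whose symbols fall outside the family's naming were looked up as well. *Rom1*, a retinal photoreceptor tetraspanin, stood at 5.91 and 5.36 FPKM in WT and at 11.7 and 10.5 in TG, without overlap (log2 fold change 0.92, SE 0.22, adjusted p = 0.0404, limma), although voom on reads gave an adjusted p of 0.0928. *Upk1a*, a bladder uroplakin, was read 9 and 8 times in WT and 1 and 0 times in TG and was not tested. *Upk1b* and *Prph2* were listed at 0 in every library.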
